A study of Mus musculus with 6 samples.

Results

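Chemokines are small secreted proteins that steer leukocytes, and their receptors are membrane proteins with transmembrane helices that couple to inhibitory G proteins. The mouse genes that encode them were taken as every protein-coding row of the deposited table whose symbol is Ccl, Cxcl, Ccr, Cxcr, Ackr or Cx3c with its number, plus Xcl1 and Xcr1. The rule found 61 genes among 55291 in the table, 38 ligands and 23 receptors. Inflammatory CC ligands such as Ccl2 draw monocytes through Ccr2, whereas homeostatic ligands such as Cxcl12 hold and place cells in resting tissue. The atypical receptors (Ackr genes) bind chemokines without classical G protein signalling and transport, capture or degrade them, and in skin they sit mainly on vessels and stromal cells.

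The study sequenced RNA of whole dorsal skin from wild-type mice (strain C57BL/6) and from mice of strain B6.Cg-Fbn1Tsk/J, labelled Fbn1+/-, with 3 samples in each group, all at day 40. The second group is called Tsk here, after the tight-skin allele of the fibrillin 1 gene Fbn1, which is known as an internal duplication rather than a loss, so that reading these mice as heterozygous for it is an assumption. The mutation is carried in the germ line and is not restricted to a cell type. Whether the samples are separate animals is not in the labels. The p-values therefore measure the spread between these samples, which may be technical.

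Library totals ran from 17561271 to 19219622 counts. Levels are given as CPM, the count scaled to a fixed depth by the TMM-corrected library total, with mean ± SD (n = 3 each). Differences are log2 fold changes of Tsk against wild type ± SE, with p-values from edgeR's quasi-likelihood test adjusted by Benjamini-Hochberg over all 19971 genes tested and a threshold of 0.05. Fbn1 stood at 303 ± 45.6 CPM (wild type) and 1761 ± 302 CPM (Tsk). Skeletal muscle marker genes summed to 176402 to 320812 CPM in wild type and 138323 to 168685 in Tsk, so muscle beneath the dermis was in every library. In bulk skin, fewer cells of a type and less RNA per cell cannot be told apart.

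Of the 61 chemokine and receptor genes, 32 passed the expression filter and were tested. Cxcl12, Ackr2, Ackr1 and Ccl24 were higher in Tsk skin, and none was lower. That is 4 of 32, or 12.5%, beside 2.72% of all tested genes called higher and 0.696% called lower. Ccl24 passed the filter through its Tsk libraries, as only replicate 2 of wild type reached the minimum count of 10. Cxcl2, Ccl3 and Ccl4, with most of their counts in wild type, missed the filter and could not be called lower. The median log2 fold change of the 32 was 0.10, beside -0.03 over all genes. The 3 Tsk libraries lay above the 3 wild-type libraries in 5 of the 32 and below them in 5, where 14.1% and 10.5% of all tested genes were separated in those directions. The count of members separated was therefore near the background. The count called higher was above it, but it includes Ccl24, which entered through its Tsk libraries. It also includes Ackr1, whose count is uncertain because it shares exonic bases with Cadm3, as described below. At an unadjusted p under 0.05, 5 members were higher and 3 lower, beside 4007 of the 19971 genes in all, a share of members near the background. Without wild-type replicate 3 none of the 4 passed, and 63 genes in all did.

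**Figure D1:**
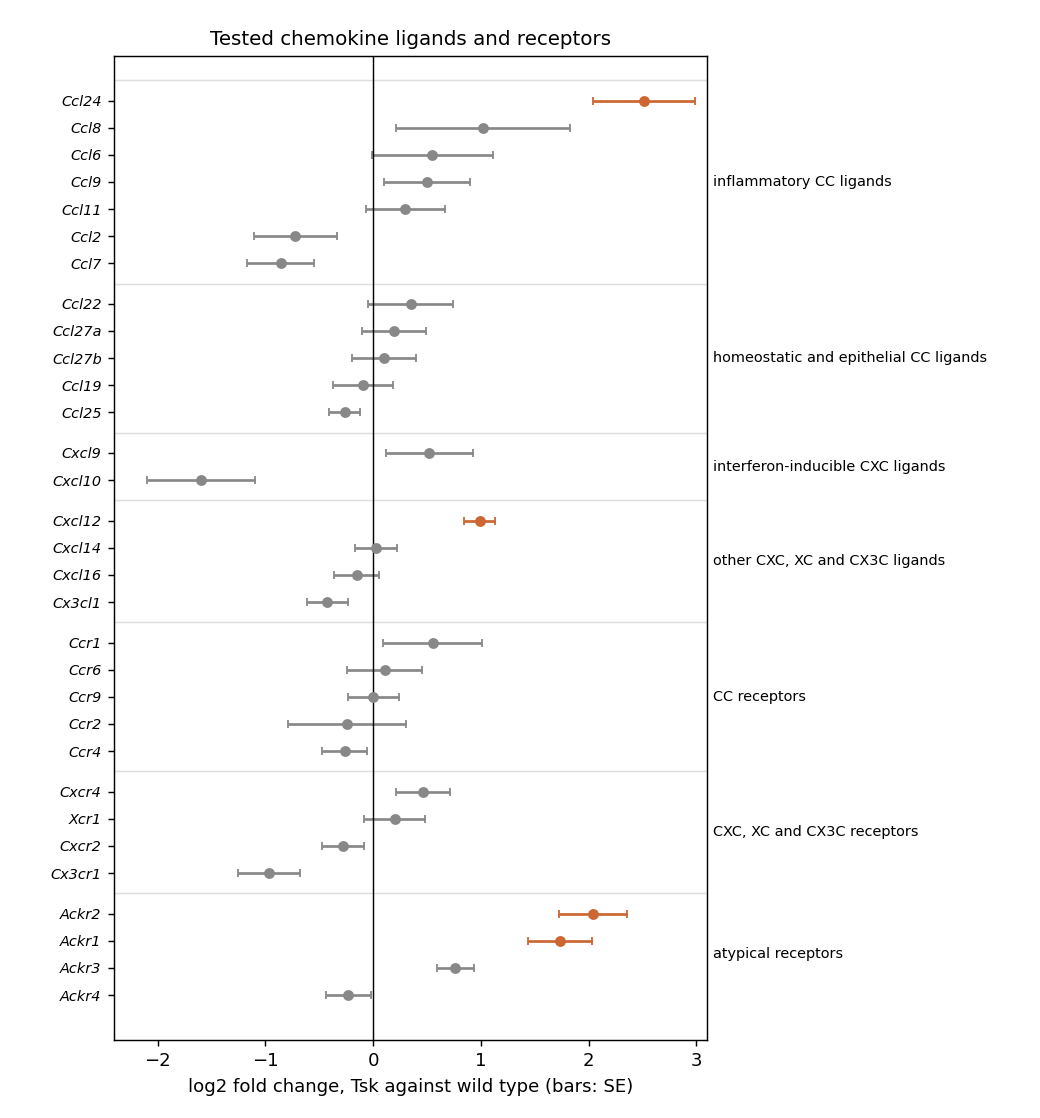
Log2 fold change of Tsk against wild type (x axis) for all but 1 of the tested chemokine and receptor genes, grouped by role, with bars for the SE. Orange points mark Ccl24, Cxcl12, Ackr2 and Ackr1, the 4 genes past the threshold, and grey points the others.

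Cxcl12, the ligand of Cxcr4 and Ackr3 that dermal fibroblasts and vessels make, held the most counts of all members. The gene spans bases 117168535 to 117181367 of chromosome 6 (mm10, plus strand). Its level was 50.7, 55.5 and 53.2 CPM in wild-type replicates 1 to 3 and 101, 124 and 91.5 CPM in Tsk replicates 4 to 6. The groups did not overlap, and the spread within wild type was small. The rise was 0.99 ± 0.14 on the log2 scale, or 1.98-fold (edgeR adjusted p = 0.0134). The call held in 5 of 6 leave-one-out fits, and the edgeR adjusted p was 0.0765 without wild-type replicate 3.

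Ackr3, the atypical receptor that binds and clears Cxcl12, stood at 19.9, 28.0 and 22.0 CPM in wild type and 34.2, 37.5 and 47.0 CPM in Tsk. The groups did not overlap, and the log2 fold change was 0.76 ± 0.17, just short of the threshold (edgeR adjusted p = 0.0502). It passed in 10 of 20 alternative fits, in which adjusted p ran from 0.00409 to 0.180. Cxcr4, the signalling receptor of Cxcl12, stood at 5.79, 3.03 and 3.67 CPM in wild type and 6.11, 5.52 and 5.65 CPM in Tsk. Wild-type replicate 1 lay among the Tsk libraries, and the difference of 0.46 ± 0.25 did not pass (edgeR adjusted p = 0.347). Across the ligand and both receptors, only Cxcl12 passed, and the differences between their fold changes were not tested.

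**Figure D2:**
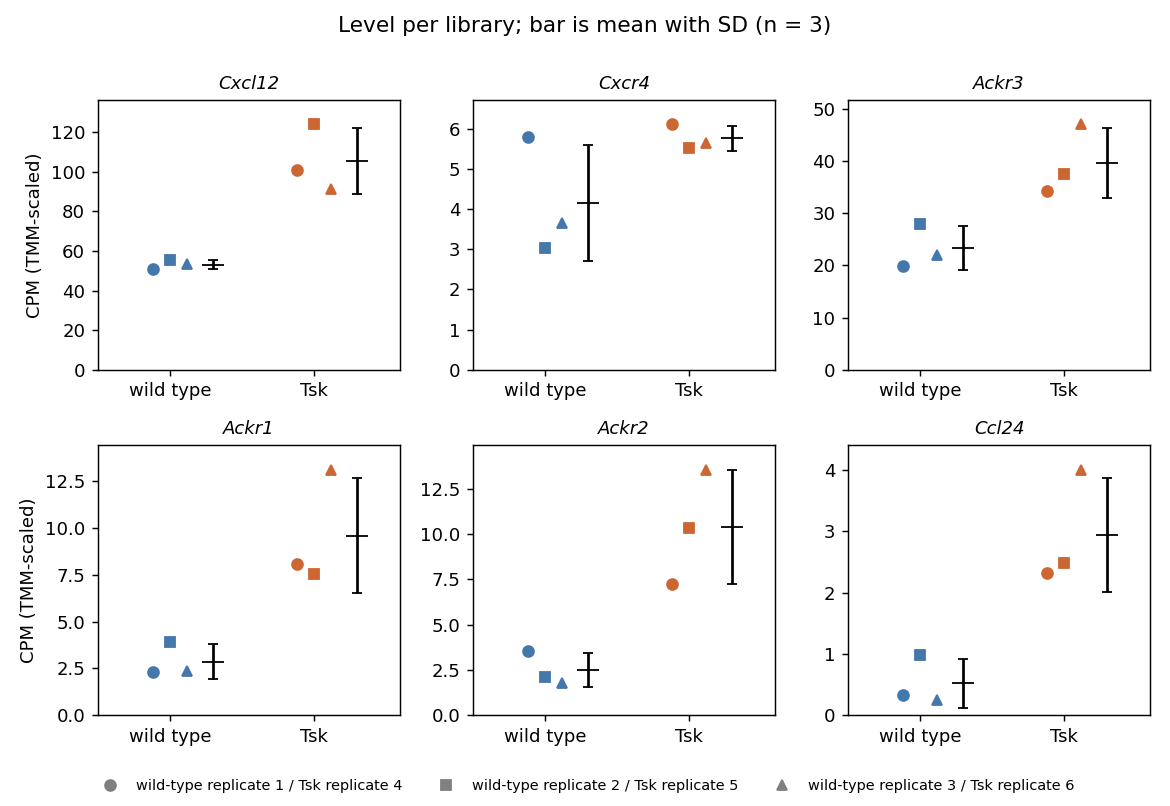
Level in CPM (y axis, from 0) of Cxcl12, its receptors Cxcr4 and Ackr3, and of Ackr1, Ackr2 and Ccl24 in each library, with the mean and SD of 3 libraries as a bar. Each Tsk library lies above each wild-type library in all panels except Cxcr4, where wild-type replicate 1 at 5.79 CPM lies among the Tsk libraries.

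Ackr2, a scavenger that takes up and degrades inflammatory CC chemokines and is known from lymphatic endothelium, spans bases 121898355 to 121911074 of chromosome 9 (plus strand). It had 64, 33 and 29 counts in the wild-type libraries, against 140, 221 and 288 in Tsk. In CPM these were 3.56, 2.14 and 1.80 against 7.26, 10.3 and 13.6, with no overlap. Ackr2 rose by 2.04 ± 0.32, or 4.12-fold (edgeR adjusted p = 0.0159), and passed in 5 of 6 leave-one-out fits. Without wild-type replicate 3 the adjusted p was 0.0804. The inflammatory CC ligands that Ackr2 is known to bind include Ccl2, Ccl7 and Ccl8, none of which passed.

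Ackr1, known from the endothelium of venules and from red cells, where it carries chemokines of both main families, spans bases 173331886 to 173333750 of chromosome 1 (minus strand). Its estimated counts were 41.8, 60.5 and 37.7 (wild type) and 156, 161 and 278 (Tsk), or 2.32, 3.92 and 2.34 against 8.08, 7.55 and 13.1 CPM. The groups did not overlap. Ackr1 rose by 1.73 ± 0.30, or 3.33-fold (edgeR adjusted p = 0.0200). The call held in 5 of 6 leave-one-out fits, and the edgeR adjusted p was 0.0982 without wild-type replicate 3.

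The count of Ackr1 is uncertain, because 361 of its 1405 exonic bases also belong to Cadm3 on the same strand (GENCODE M21). Cadm3, a cell adhesion gene at 173333258 to 173367695 of chromosome 1, ends within Ackr1, and reads there can be given to either gene. Cadm3 stood at 15.4, 21.7 and 14.2 CPM in wild type and 36.7, 46.5 and 88.0 CPM in Tsk, a rise of 1.74 ± 0.32 (edgeR adjusted p = 0.0289). Both genes rose by nearly the same amount, and in both wild-type replicate 2 and Tsk replicate 6 were the highest of their group. How much of the rise belongs to Ackr1 alone cannot be told apart from these gene-level counts.

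**Figure D3:**
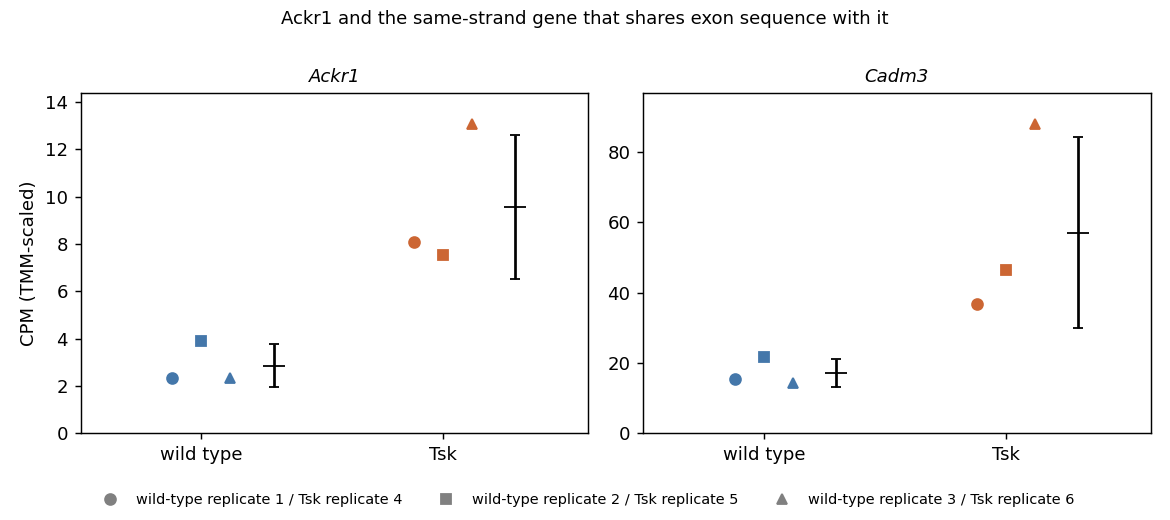
Level in CPM (y axis, from 0) of Ackr1 and of Cadm3, which shares 361 exonic bases with it on the same strand, in each library with the mean and SD of 3 libraries. In both panels all Tsk libraries lie above all wild-type libraries and Tsk replicate 6 is the highest.

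Ackr4, which clears Ccl19, Ccl21 and Ccl25 and is known from keratinocytes and lymphatic vessels, was the atypical receptor on the negative side. It held 27.2, 17.3 and 16.3 CPM in wild type and 20.1, 15.4 and 16.5 in Tsk, with overlapping groups (-0.23 ± 0.21, edgeR adjusted p = 0.596). The value was 0.01 when library totals alone set the scale. Its exons overlap those of Acad11 on the opposite strand, and whether the counting used strand is not given in the sources used here. Atypical receptors as a class had 2 of 4 members higher, beside 2.72% of all tested genes, and none lower. These were Ackr2 and Ackr1, and the count of Ackr1 is uncertain as described above. The class median of 1.25 also draws on the Ackr1 value.

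Ccl24, also called eotaxin 2, attracts eosinophils through Ccr3 and is known from alternatively activated macrophages. The gene spans bases 135569937 to 135573049 of chromosome 5 (minus strand). It had 6.01, 15.2 and 4.00 counts in the wild-type libraries, against 44.8, 53.0 and 85.0 in Tsk. The rise was 2.51 ± 0.47, or 5.71-fold, from 0.523 ± 0.403 to 2.93 ± 0.927 CPM (edgeR adjusted p = 0.0280). The fold rests on few wild-type counts, and its log2 value ran from 2.20 to 3.30 with 1 library left out, the highest being without wild-type replicate 2. It was 1.53 on the deposited CPM plus 1. Ccl24 passed in 4 of 6 leave-one-out fits. The edgeR adjusted p was 0.112 when wild-type replicate 3 was left out and 0.0727 when Tsk replicate 6 was. Its receptor gene Ccr3 held 0 to 6 counts per library and was not tested. The related eotaxin Ccl11 overlapped between groups at 3.78, 7.78 and 3.42 against 3.94, 7.93 and 6.43 CPM (0.30 ± 0.36), and the third, Ccl26, held 0 counts in every library.

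The letters upstream of the start sites are shown for Cxcl12, Ackr2 and Ackr3, which were separated between the groups, and for Cxcl10, the interferon-inducible ligand with the most negative fold change. Each run is the 250 bases before the start site in RefSeq's promoter table (GRCm38.p6, the mm10 build), read 5′ to 3′ on the gene's strand. They span chr6:117168285-117168534 for Cxcl12, chr9:121898105-121898354 for Ackr2, chr1:90203730-90203979 for Ackr3 (all on the plus strand) and chr5:92348890-92349139 for Cxcl10 (minus strand). Capitals mark the letters of 3 motifs, each searched on both strands. They are a kappaB consensus (GGG, any 5 bases, CC), the core of the interferon-stimulated response element (GAAA, any 2 bases, GAAA) and the GC box (GGGCGG).
Cxcl12: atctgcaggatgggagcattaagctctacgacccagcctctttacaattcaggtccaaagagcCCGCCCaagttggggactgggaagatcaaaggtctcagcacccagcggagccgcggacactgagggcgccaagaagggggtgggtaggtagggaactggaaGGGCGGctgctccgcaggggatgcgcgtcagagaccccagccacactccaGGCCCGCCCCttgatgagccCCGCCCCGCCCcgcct
Ackr2: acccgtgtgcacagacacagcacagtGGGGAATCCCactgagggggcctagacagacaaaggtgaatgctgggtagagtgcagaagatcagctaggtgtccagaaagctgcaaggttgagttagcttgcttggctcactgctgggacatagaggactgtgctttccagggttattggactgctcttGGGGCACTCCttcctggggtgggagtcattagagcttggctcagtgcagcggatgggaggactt
Ackr3: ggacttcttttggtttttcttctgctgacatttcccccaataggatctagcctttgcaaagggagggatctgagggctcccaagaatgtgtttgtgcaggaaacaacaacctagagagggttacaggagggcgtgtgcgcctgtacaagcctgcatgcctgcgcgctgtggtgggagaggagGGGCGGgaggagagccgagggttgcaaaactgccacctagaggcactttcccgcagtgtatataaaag
Cxcl10: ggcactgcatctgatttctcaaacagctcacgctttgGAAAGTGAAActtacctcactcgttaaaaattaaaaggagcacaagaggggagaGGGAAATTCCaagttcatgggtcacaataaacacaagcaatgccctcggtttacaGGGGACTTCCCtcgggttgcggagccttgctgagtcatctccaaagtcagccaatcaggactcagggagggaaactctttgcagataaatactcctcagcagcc

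The Cxcl12 window held 5 GC boxes, 2 of which share a base, and a kappaB match that overlaps another of them. Ackr3 held a single GC box, Ackr2 a pair of kappaB matches and no GC box, and Cxcl10 the interferon element with 3 kappaB matches, 2 of which overlap. Of 27025 promoters of this length, 45.4% held the kappaB letters, 32.9% a GC box and 3.04% the interferon element. Among the 47 members with a promoter in the table, the counts were 25, 7 and 3, the last being Ccl19, Cxcl10 and Cxcl14. A match describes letters only and is not a bound site.

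Among the inflammatory CC ligands, Ccl24 was the 1 of 7 tested members that passed, and 6 of the class were too low to test. Ccl6 and Ccl9, myeloid ligands of Ccr1, held the most counts. Ccl6 stood at 49.0, 12.96 and 20.003 CPM in wild type and 26.8, 25.01 and 68.5 CPM in Tsk (0.55 ± 0.56, edgeR adjusted p = 0.646). Ccl9 stood at 29.7, 11.002 and 15.96 CPM against 19.1, 20.7 and 40.7 CPM (0.50 ± 0.40). In both, wild-type replicate 1 and Tsk replicate 6 were the high libraries of their groups. Without Tsk replicate 6 the log2 fold changes were -0.08 for Ccl6 and 0.07 for Ccl9, and without wild-type replicate 1 they were 1.31 and 1.02.

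Ccl8, another monocyte ligand, was named after its values were seen. It held 6.57, 2.07 and 2.86 CPM in wild type and 2.64, 2.95 and 17.9 CPM in Tsk, so the difference of 1.02 ± 0.81 came from Tsk replicate 6 and was -0.46 without it. Ccr1, the receptor of Ccl6 and Ccl9 and also named afterwards, stood at 2.34, 1.43 and 1.68 CPM in wild type and 1.81, 1.45 and 4.75 CPM in Tsk. Its difference was 0.55 ± 0.46, and -0.16 without Tsk replicate 6. None of these ligands, nor Ccr1, passed the test, and all 4 had overlapping groups.

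Ccl2 and Ccl7, the main ligands of Ccr2, lay on the other side. Ccl7 stood at 3.23, 1.62 and 2.05 CPM in wild type and 1.14, 1.36 and 1.32 CPM in Tsk, with no overlap (-0.86 ± 0.31, edgeR adjusted p = 0.170). Ccl2 overlapped, at 3.56, 1.17 and 2.17 CPM against 1.24, 1.4026 and 1.55 CPM (-0.72 ± 0.39, edgeR adjusted p = 0.341). Wild-type replicate 1 was the highest library for both.

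Ccr2 itself, which marks inflammatory monocytes, stood at 28.0, 5.28 and 11.3 CPM in wild type and 8.82, 10.9 and 18.0 CPM in Tsk. The wild-type libraries spanned the whole Tsk range, and the log2 fold change of -0.24 ± 0.55 became 0.63 without wild-type replicate 1. The CC receptor class had 0 of 6 tested members called and 3 on each side of 0.

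**Figure D4:**
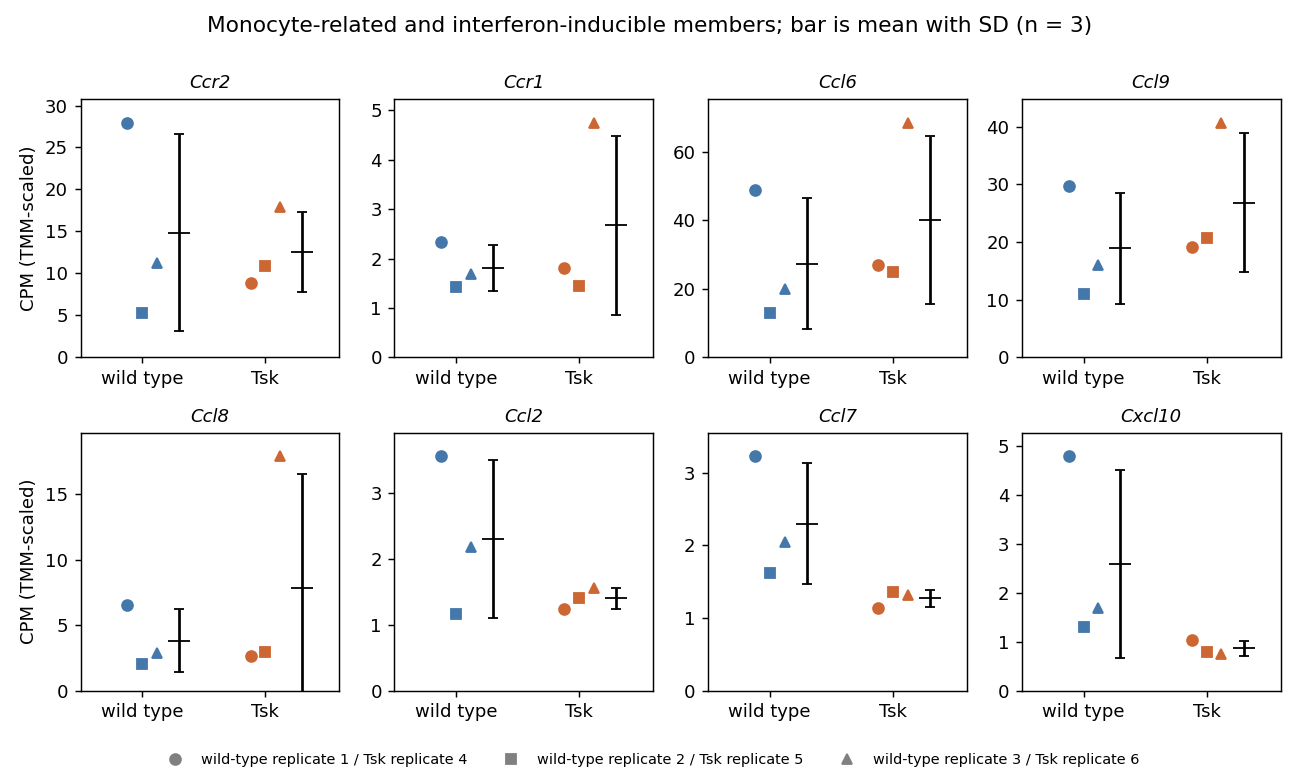
Level in CPM (y axis, from 0) of Ccr2, Ccr1, Ccl6, Ccl9, Ccl8, Ccl2, Ccl7 and Cxcl10 in each library, with the mean and SD of 3 libraries as a bar (cut off at 0 for Ccl8). Wild-type replicate 1 is the highest wild-type library in every panel, and Tsk replicate 6 the highest Tsk library in all except Ccl7 and Cxcl10.

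Wild-type replicate 1 was the highest of all 6 libraries for 14 of the 32 tested members, whereas it was the highest for 18.3% of all tested genes. Tsk replicate 6 was the highest for 10 members, beside 22.9% of all genes. Wild-type replicate 2 was the lowest for 12 members, beside 19.9% of all genes. Ccr2, Ccl6, Ccl9 and Ccl8 had a wider range within wild type than the distance between the group means.

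Both interferon-inducible ligands of Cxcr3, Cxcl9 and Cxcl10, were tested. Cxcl10 stood at 4.79, 1.30 and 1.68 CPM in wild type and 1.04, 0.795 and 0.753 CPM in Tsk, without overlap. The log2 fold change was -1.60 ± 0.50 (edgeR adjusted p = 0.124), passed in DESeq2 alone among 19 alternatives (adjusted p = 0.0389) and was -0.76 without wild-type replicate 1. Its exons overlap those of Art3 on the opposite strand. Cxcl9 pointed the other way, at 3.74, 3.39 and 2.75 CPM against 3.83, 7.91 and 2.41 CPM (0.52 ± 0.40), and was -0.08 without Tsk replicate 5. Their receptor gene Cxcr3 held 1 to 15 counts and was not tested.

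The fractalkine pair shared a direction. Cx3cr1, the fractalkine receptor of resident macrophages and monocytes, stood at 5.77, 3.79 and 3.85 CPM in wild type and 2.76, 1.55 and 2.63 CPM in Tsk. Its ligand Cx3cl1, a membrane-bound chemokine of endothelium and epithelium, stood at 7.12, 5.83 and 5.65 CPM against 5.34, 4.16 and 4.38 CPM. Neither overlapped between groups and neither passed, with log2 fold changes of -0.96 ± 0.29 (edgeR adjusted p = 0.107) and -0.43 ± 0.19 (edgeR adjusted p = 0.255). Exons of Cx3cr1 overlap those of Gm33858 on the opposite strand.

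Cxcl14, an epithelial chemokine abundant in skin, did not differ beyond its spread, at 31.2, 36.4 and 30.3 CPM in wild type and 42.1, 23.9 and 33.6 CPM in Tsk (0.03 ± 0.20). Cxcr2, the neutrophil receptor, stood at 5.33, 4.26 and 5.20 CPM against 3.66, 4.59 and 3.94 CPM (-0.28 ± 0.19). Ccl25, known for drawing T cells to thymus and gut, lay at 9.40, 9.52 and 10.1 CPM in wild type and 7.54, 7.77 and 8.84 CPM in Tsk. Its groups did not overlap, but the log2 fold change of -0.26 ± 0.15 did not pass (edgeR adjusted p = 0.362) and was 0.01 with library totals alone. Its exons overlap those of Elavl1 on the opposite strand.

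Ccl27a, which draws skin-homing T cells through Ccr10, stood at 13.3, 5.54 and 8.36 CPM in wild type and 12.001, 10.7 and 8.58 CPM in Tsk (0.19 ± 0.30). It has a near-identical copy, Ccl27b, and its exons also overlap those of Il11ra1 on the opposite strand, so its counts are uncertain. Ccr10 held 0 to 4 counts. The homeostatic class as a whole had 0 of 5 tested members called and a median of 0.10. The remaining tested members were Ccl19, Ccl22, Ccl27b, Cxcl16, Ccr4, Ccr6, Ccr9 and Xcr1, all with overlapping groups.

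Levels per kilobase used the merged length of all annotated exons of a gene, 8176 bases for Cxcl12 and 1827 for Cxcl14. Which transcripts were present was not determined, so the order of members depends on this length. Per kilobase of exon, the level of Cxcl14 had the highest wild-type mean of the members matched to GENCODE M21, at 16.6 to 19.9 CPM per kilobase. Ccl6 followed at 7.22 to 27.3 CPM per kilobase, a range that spans that of Cxcl14. Ccl8 (4.06 to 12.8), Ackr3 (5.95 to 8.36), Cxcl12 (6.21 to 6.79) and Ccl9 (3.61 to 9.74) formed the next group, and their ranges overlapped. In Tsk skin Cxcl12 reached 11.2 to 15.2 and Ackr3 10.2 to 14.04 CPM per kilobase, against 13.1 to 23.0 for Cxcl14. Ccl6 had the highest Tsk mean, at 13.9 to 38.2 CPM per kilobase, and Ccl8 ranged from 5.17 to 35.1, both with Tsk replicate 6 highest.

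The filter left out 29 members, none with more than 68.2 counts over all libraries. Ccl26 and Cxcl17 held 0 counts in every library, which at a limit of 3 counts per library allows up to 0.194 CPM. All 5 neutrophil-attracting CXC ligands were among the untested. Cxcl2 held 6, 40.0 and 3 counts in the wild-type libraries, against 0 in all 3 of Tsk, so wild-type replicate 2 carried most of its signal. Cxcl1 held 7.23, 13 and 15 counts against 6.25, 9.14 and 5.14, in the same order. The macrophage ligand Ccl3 held 10, 10 and 1 counts against 2, 2 and 0. Ccl4, a close relative, held 4, 9 and 2 counts against 0, 1 and 0. All 4 were low, and wild-type libraries carried most of the counts of Cxcl2, Ccl3 and Ccl4.

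In the other direction, Cxcr6, a receptor of resident T cells, held 2, 2 and 1 counts (wild type) and 11, 8 and 4 (Tsk). Ccl21a, the lymphatic ligand of Ccr7, held 3.20, 7.67 and 0.00 counts against 16.5, 5.36 and 32.7, and its copies Ccl21b and Ccl21d held at most 4.42. Reads cannot be assigned with certainty among these near-identical Ccl21 genes, and their groups overlap for Ccl21a. In a fit without the filter, 0 of these 27 members with any counts passed in edgeR, and 4 had an unadjusted p under 0.05, among them Ccl4 (adjusted p = 0.0916) and Ccl3 (adjusted p = 0.163). The remaining untested members held at most 24 counts in any library, and Cxcl13, a B cell ligand, had that value in Tsk replicate 6.

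Marker lists are given beside the raised members. The counts called higher in every marker list are to be read beside the 2.72% called higher of all tested genes. Of 9 tested blood endothelium markers, Plvap, Vwf and Tek were higher, by 1.16 ± 0.15, 0.99 ± 0.16 and 1.29 ± 0.21, with a list median of 0.66. The 10 markers summed to 173 to 220 CPM in wild type and 298, 401 and 262 CPM in Tsk replicates 4 to 6. Within Tsk, Cxcl12 had the same order of replicates as this sum. Ackr1 and Ackr2 were instead highest in Tsk replicate 6, where the sum was the lowest of Tsk. Lymphatic endothelium markers summed to 59.8 to 66.7 CPM against 85.9 to 154, and Lyve1 alone of 6 tested was higher (2.22 ± 0.46, edgeR adjusted p = 0.0435). That call held in 3 of 6 leave-one-out fits. Lyve1 stood at 22.2, 31.5 and 80.9 CPM in Tsk replicates 4 to 6, so it made up much of the sum of 154 CPM in replicate 6. Fibroblast markers summed to 6315 to 11023 CPM in wild type and 18693 to 42598 CPM in Tsk, and 5 of 12 were higher, among them Dpp4 (2.36 ± 0.20), Sfrp2 (3.28 ± 0.32), Pi16 (3.14 ± 0.43) and Cd34 (0.94 ± 0.16). No marker of these 3 lists was lower, and their part in the levels of Cxcl12, Ackr1, Ackr2 and Ackr3 was not tested.

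Macrophage and monocyte markers summed to 365 to 454 CPM in wild type and 550, 709 and 1392 CPM in Tsk replicates 4, 5 and 6. The transglutaminase subunit F13a1 alone of 15 tested was higher (1.61 ± 0.31), in 3 of 6 leave-one-out fits too, and the list median was 0.95. Both this sum and Ccl24 were higher in every Tsk library, and replicates 4, 5 and 6 had the same order in both. Within wild type the order differed, as replicate 2 had the lowest sum (365 CPM) and the most Ccl24 (0.986 CPM). The part of these markers in the level of Ccl24 was not tested. Skeletal muscle markers, with sums that did not overlap, had 0 of 20 called and a median of -0.80, and their part was not tested either. Leaving those 20 genes out of the table left the same 4 members past the threshold, and Ackr3 passed as well (edgeR adjusted p = 0.0499).

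Other leukocyte markers had no member called. Their medians were 0.44 for 10 tested dendritic and Langerhans cell genes, 0.33 for 12 of T and natural killer cells and 1.07 for 6 of mast cells. They were -0.31 for 4 neutrophil genes and -0.34 for 3 B cell genes, while 1 of the 6 eosinophil and basophil genes was testable (Il5ra, 0.37 ± 0.22). Marker sums lay higher in every Tsk library for dendritic and Langerhans cells (98.9 to 146 against 180 to 257 CPM). The same held for mast cells (8.40 to 11.5 against 12.2 to 25.6 CPM) and, narrowly, eosinophils and basophils (1.99 to 2.50 against 2.51 to 3.29 CPM). Sums of the neutrophil, B cell, and T and natural killer cell lists overlapped. Ly6g of neutrophils, Epx of eosinophils and Mcpt8 of basophils held 0 counts in all 6 libraries. The most abundant members were H2-Ab1 (0.75 ± 0.24) and H2-Aa (0.73 ± 0.23), Cd3d (-0.17 ± 0.24) and Trdc (0.34 ± 0.27), Kit (1.01 ± 0.27) and Mcpt4 (1.51 ± 0.47), Il1r2 (0.06 ± 0.29) and Mmp9 (0.23 ± 0.35), and Ighm (-0.20 ± 0.20) and Ms4a1 (-0.34 ± 0.24), none of which passed. Keratinocyte markers had 1 of 12 higher (Lor, 1.78 ± 0.22) with a median of -0.25 and 5 on the positive side. Adipocyte markers had 2 of 10 higher (Lep, 3.50 ± 0.69, and Cfd, 2.56 ± 0.54) with a median of 2.64. Their sums overlapped, at 2822 to 4253 CPM in wild type and 2698 to 6406 CPM in Tsk. Lep and Cfd were highest in Tsk replicate 5, at 50.5 and 588 CPM, and each passed in 3 of 6 leave-one-out fits.

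The counts called in the lists around the chemokine system are to be read beside the 3.42% called of all tested genes. Of 34 tested genes of chemokine receptor signalling, the receptor kinase Grk5 alone passed, at 11.9 ± 1.08 against 21.4 ± 2.49 CPM (0.85 ± 0.14, edgeR adjusted p = 0.0191), in 2 of 6 leave-one-out fits. The median of that list was 0.22, and its sums did not overlap (959 to 1095 CPM in wild type against 1164 to 1221 in Tsk). Of 23 listed cytokines, 21 were found by symbol and 6 were testable. None was called, with a median of 0.48, Csf1 at 0.69 ± 0.25 and Il33 at 0.20 ± 0.24. The sums of that list lay higher in every Tsk library (46.7 to 51.5 against 60.8 to 86.8 CPM). Il17a, Il22, Ifng, Ifnb1 and Il13 held 0 counts in every library. None of 25 NF-kappaB and interferon response genes passed, with a median of -0.09, Nfkb1 at 0.02 ± 0.12 and Nfkbia at 0.10 ± 0.16. Their sums overlapped between groups. Among 23 tested genes that present, clip or accompany chemokines, Dpp4 alone was higher, from 7.56 ± 0.986 to 38.7 ± 9.42 CPM (edgeR adjusted p = 0.00278), in all 6 leave-one-out fits too. The sums of this list did not overlap (1374 to 1546 CPM in wild type against 1903 to 2067 in Tsk). Dpp4 encodes a peptidase that removes the first residues of several chemokines, Cxcl12 included, and it was also counted among the fibroblast markers above.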

How the data were processed

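RNA of whole dorsal skin was sequenced from 3 wild-type and 3 Tsk mouse samples. Libraries were stranded and depleted of ribosomal RNA, per the labels' protocols. The submitters' processing notes name STAR, Partek 7.0, bcl2fastq 2.19.1.403 and mm10. How reads were counted is not given in the sources used here. Expected counts were deposited by the authors. In each library 31.5 to 34.1% of genes had a count that was not whole (tolerance 1e-06), and counts were rounded before testing. The authors' deposited CPM values and their TMM-normalized signal entered alternatives on a log2 scale with a pseudocount of 0.1 or 1.

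Groups follow the labels. The main test was that of edgeR 4.0.16 under R 4.3.3 (quasi-likelihood F-test, robust dispersions, TMM, minimum count 10 and minimum total 15), and the SE is the fold change over the square root of F. Alternatives were other scalings and filters, DESeq2 1.42.0, limma 3.58.1, protein-coding genes only, the table without muscle genes and each library left out, with unrounded counts added after seeing the data. The fit was tested on simulated data.

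The deposited end positions lie 1 base past GENCODE M21's, by which 52904 of 55291 genes and 58 of 61 members matched. No 2 libraries of the same group agreed within sampling noise (chi-square per degree of freedom at least 8.90). Reads carry no molecular identifiers, so limits from a count of 0 cover counting error only. The members and the 18 gene lists were chosen with earlier results of these data known. Named genes are members past the threshold, the 12 with the smallest p, the 2 with the most counts in each of 8 role classes and, of other lists, up to 4 past the threshold or the 2 with the most counts. Ccl21d, absent from the fixed classes, was put with the homeostatic ligands. The values of 1 tested member are not reported here, and it is left out of the plots but not of the counts.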

Additional observations from a re-analysis of the deposited data

How the results depend on the processing

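The count of members past the threshold stayed within 1.5 times of 4 in 19 of 20 alternatives. It was 0 to 5 with 1 library left out, 0 being the fit without wild-type replicate 3. The count over all genes was 683 and ran from 63 to 1381 with 1 library left out. It was 1791 with library totals alone (94.6% higher, beside 79.6% of the 683), 1157 without a filter and 1592 with DESeq2. Without wild-type replicate 1 it was 1381, of which 55.2% were higher. With limma on the deposited values it was 1887 (CPM plus 0.1), 1895 (CPM plus 1) and 1268 (TMM-normalized plus 0.1). Library totals alone moved the median of all genes from -0.03 to 0.25 (log2).

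Signs turned only for genes that did not pass. With library totals alone Ackr4 stood at 0.0149 and Ccl25 at 0.0131. On deposited CPM plus 0.1, Ackr4 was 0.0809, Ccl25 0.0125, Ccr2 0.29 and Cxcr2 0.0015, and on CPM plus 1, Ackr4 was 0.0745, Ccl25 0.0114 and Ccr2 0.25. On the TMM-normalized values Ccr2 was 0.16. Cxcl14 was -0.0088 with upper-quartile factors and -0.0078 with limma-voom. With 1 library left out, values ran from -0.36 to 0.0657 for Ackr4, -0.0560 to 0.61 for Ccl27a, -0.0794 to 1.31 for Ccl6, -0.46 to 1.69 for Ccl8, -0.16 to 0.85 for Ccr1, -0.64 to 0.63 for Ccr2, -0.18 to 0.21 for Cxcl14 and -0.0787 to 0.84 for Cxcl9. Cxcl12, Ackr1, Ackr2 and Ccl24 kept their direction in all 20 alternatives. No paired analysis was possible because the labels number the groups 1 to 3 and 4 to 6. Depth limits the 29 untested members and the fold of Ccl24.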

Other observations

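Some attractants outside the naming rule also differed between the genotypes. Of 11 tested genes in a list of such attractants and their receptors, 2 were higher in Tsk skin and none lower. Of all tested genes, 2.72% were called higher and 0.696% lower. Rarres2, the gene of chemerin, which attracts macrophages and plasmacytoid dendritic cells through Cmklr1, held 7.01, 6.09 and 4.10 CPM (wild type) and 12.7, 19.0 and 24.7 CPM (Tsk). The groups did not overlap, and the rise was 1.71 ± 0.28 on the log2 scale (edgeR adjusted p = 0.0187). Cmtm3, a chemokine-like membrane protein gene, went from 9.82 ± 0.277 to 20.3 ± 4.51 CPM, a log2 rise of 1.05 ± 0.17 (edgeR adjusted p = 0.0186). Both passed in 4 of 6 leave-one-out fits.

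The table also holds members of the family by name that the rule leaves out. Cxcl11, listed as a polymorphic pseudogene in this strain's annotation, held 0.660 ± 0.280 CPM (wild type) and 0.696 ± 0.224 CPM (Tsk). Ccrl2, a non-signalling receptor that binds chemerin, stood at 2.16 ± 0.382 against 2.02 ± 0.765 CPM. Neither difference passed, at 0.08 ± 0.46 and -0.09 ± 0.33.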
